A study of Rattus norvegicus with 12 samples.

Results

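The 34 genes described here encode proteins of the heart muscle sarcomere, its Z-discs and their attachments, together with muscle proteins of energy and oxygen supply. They were chosen by gene symbol, and each was read from 1 Affymetrix probe set, the one with the highest mean signal where a gene had several. Of the 34, 33 had a probe set annotated to that gene alone, among 14217 genes so named on the array, and all 33 passed the filter on low signals that left 18625 probe sets (10082 named genes) for testing. Actc1, which encodes cardiac alpha-actin, is represented by probe sets annotated to both Actc1 and Acta2, so no value is given for it.

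Primary cultures of ventricular cardiomyocytes were prepared from 1-day-old Wistar rats by enzymatic dissociation and differential adhesion, kept in OPTI-MEM for 24 h and then exposed for 3 h to a steroid or to its solvent. The 8 groups were cortivazol (CVZ), corticosterone (COR) and aldosterone (ALD), each with 10 µM RU486 given beforehand, RU486 alone, then CVZ, COR and ALD without RU486, and ethanol vehicle. CVZ is a synthetic glucocorticoid, COR the main natural glucocorticoid of the rat, ALD the natural mineralocorticoid, and RU486 an antagonist of the glucocorticoid receptor. Each group with RU486 was measured once, in the second of 2 experiments (n = 1), and the groups without RU486 once in both (n = 2). Neonatal cells in culture are an immature model of heart muscle, and the labels give neither the ligand doses nor whether the experiments were separate cell preparations, so the p-values reflect only how far these 12 arrays scatter and a difference between ligands is a difference at the doses used.

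In a sarcomere, myosin thick filaments slide past actin thin filaments. Thin filaments are anchored by alpha-actinin in the Z-disc, and titin runs from the Z-disc to the M-band, where thick filaments are held in register. Troponin and tropomyosin make sliding depend on calcium. Z-disc proteins also bind signalling proteins such as calcineurin, and the Z-disc is tied through desmin and costameres to the neighbouring myofibrils and the cell membrane. Neonatal ventricular cells still express Myl4 and Myl7, which later become largely atrial, and Tnni1, a largely fetal gene.

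Signals are in units of the array median: a probe set at 1 is at the median of its array. All 33 members lay above 1 on every array. Levels are compared here only within a gene, because the response of one probe set cannot be set against that of another. Log2 differences are given with the standard error (SE) from limma, fitted over all tested probe sets with the experiment as a block, and a gene is said to have risen, fallen or been called where its p, adjusted by Benjamini-Hochberg over all 18625, was below 0.05. The SE borrows most of its weight from the other probe sets of the array, and the scatter of a group with a single RU486 array is assumed to equal that of the rest. Array data carry no depth, and the number of arrays limits the precision.

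RefSeq promoters (build GRCr8, 250 bases before to 50 after the gene start) were held for 26 of the 34 genes. Of the 6 members that rose under both CVZ and COR, described below, Lmod2, Myoz2 and Ckmt2 had one and Tcap, Abra and Pdlim3 had none. These 3 are shown because they stand next to genes that rose together. They lie at chr4:54032724-54033023 (plus strand, Lmod2), chr2:213852729-213853028 (minus strand, Myoz2) and chr2:24845462-24845761 (minus strand, Ckmt2), and capitals mark a match to the MEF2 site, the binding sequence of a muscle transcription factor.
Lmod2: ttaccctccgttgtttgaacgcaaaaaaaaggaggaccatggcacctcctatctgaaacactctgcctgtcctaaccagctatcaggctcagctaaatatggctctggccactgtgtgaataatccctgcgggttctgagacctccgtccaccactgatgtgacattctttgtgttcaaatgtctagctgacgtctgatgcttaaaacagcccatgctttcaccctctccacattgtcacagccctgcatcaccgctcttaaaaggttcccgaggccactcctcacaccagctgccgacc
Myoz2: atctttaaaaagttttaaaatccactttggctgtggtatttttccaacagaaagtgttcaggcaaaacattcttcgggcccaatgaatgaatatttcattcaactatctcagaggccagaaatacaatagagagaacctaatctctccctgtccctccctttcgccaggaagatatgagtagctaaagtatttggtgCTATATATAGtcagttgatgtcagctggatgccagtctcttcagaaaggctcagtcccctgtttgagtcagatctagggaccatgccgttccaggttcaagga
Ckmt2: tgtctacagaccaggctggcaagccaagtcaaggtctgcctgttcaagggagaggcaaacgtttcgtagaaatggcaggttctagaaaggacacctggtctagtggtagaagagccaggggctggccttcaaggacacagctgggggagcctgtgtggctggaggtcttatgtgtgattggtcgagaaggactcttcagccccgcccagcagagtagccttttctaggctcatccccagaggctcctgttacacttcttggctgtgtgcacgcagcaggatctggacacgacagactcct

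Each promoter was searched on both strands for TGTTCT, one side of the glucocorticoid response element, for the whole element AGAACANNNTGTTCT, for the muscle MCAT element CATTCC, and for the CArG box and the MEF2 site by their usual patterns. TATAAA was searched on the forward strand. TGTTCT, which is contained in the whole element, stood in 0 of these 3 promoters, in 5 of the 20 promoters of members not called under CVZ and in 20.1% of all 27456 promoters. The whole element occurred in 0.00728% of all promoters and in 0 of the 26. The MEF2 site was found in Myoz2, 53 bases before the start, in 4 of the 20 (Mybpc3, Ttn, Smpx and Fhl2) and in 3.37% of all promoters. CATTCC stood in 0 of the 3, 7 of the 20 and 13.9% of all, the CArG box in 0, 3 and 1.64%, and TATAAA in 0, 1 (Mb) and 9.08%. The 26 member promoters include some that are in neither the 3 nor the 20. Over all 26, TGTTCT stood in 6, the MEF2 site in 6, the CArG box in 4, CATTCC in 7 and TATAAA in 1. A match describes letters only, and the absence of one says only that the letters are not in this window.

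Under CVZ, 9 of the 33 measured members rose and 0 fell, against 4.77% of all tested probe sets called higher and 3.19% called lower (7.96% in either direction). The 9 were Tcap, Abra, Lmod2, Ckmt2, Myoz2, Pdlim3, Xirp1, Pdlim5 and Cryab. They span the roles in the list: 1 thin filament gene, the titin cap, 3 Z-disc genes, 2 genes of desmin and cell adhesion, 1 signalling gene and 1 energy gene. None of the 6 thick filament genes was among them, with log2 differences between -0.03 and 0.18. The median log2 difference of the 33 was 0.07, against 0.007 over all tested probe sets.

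**Figure D1:**
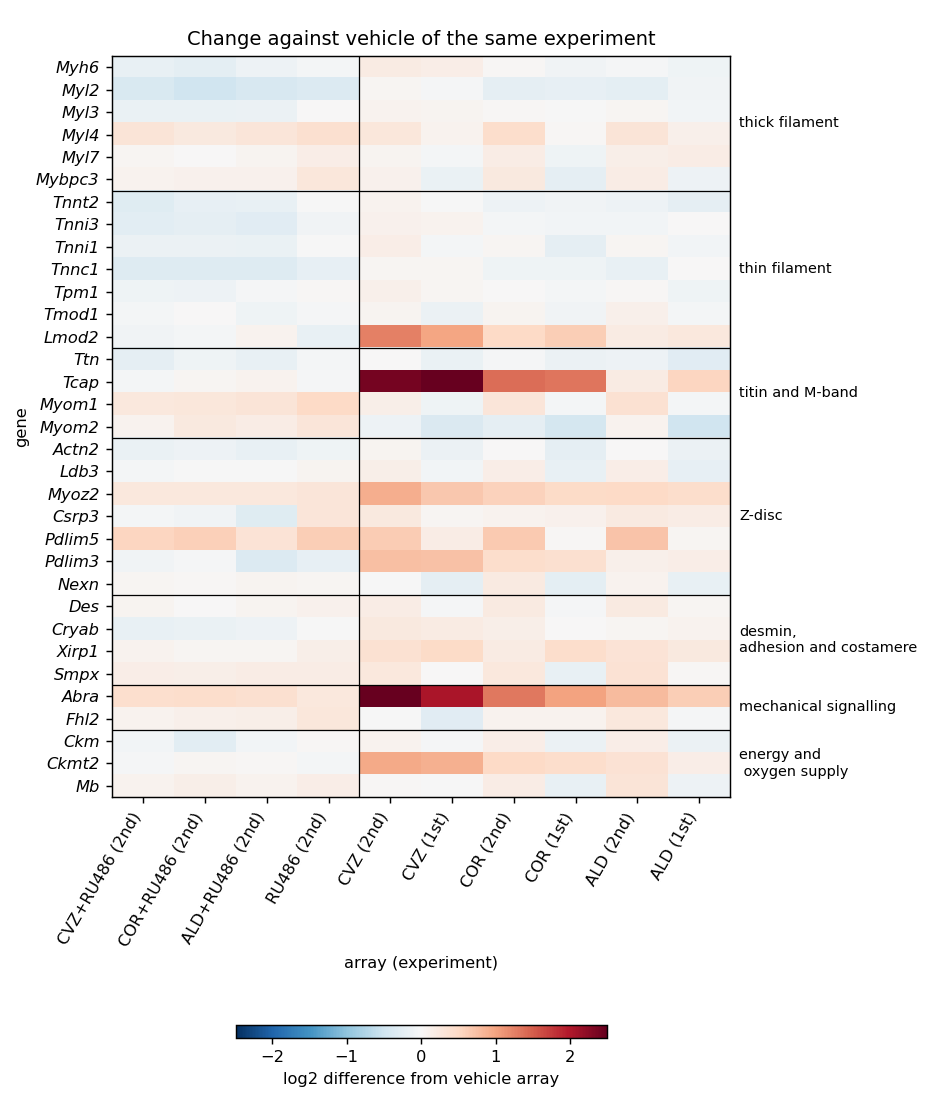
Log2 difference of each measured member (rows, ordered by role) from the vehicle array of the same experiment, for the 4 arrays with RU486 (left of the line) and the 6 ligand arrays without it (right); red is higher than vehicle and blue lower. Tcap and Abra carry the darkest red in the CVZ columns, Lmod2, Myoz2, Pdlim3 and Ckmt2 are red under CVZ and paler under COR, and most other rows stay near 0.

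Tcap encodes telethonin, the small Z-disc protein that caps the end of titin. Its signals were 56.6 in the second and 73.2 in the first experiment under CVZ, 28.7 and 32.8 under COR, 12.5 and 18.8 under ALD, and 10.8 and 13.0 with vehicle. On the RU486 arrays it stood at 10.4 with CVZ, 11.3 with COR, 11.6 with ALD and 10.6 alone. The CVZ and COR arrays lay above all others without overlap, whereas the second ALD array lay below the first vehicle array. Tcap rose under CVZ by log2 2.43 ± 0.11 (5.39-fold, adjusted p = 6.5e-10) and under COR by 1.36 ± 0.11 (2.57-fold, adjusted p = 9.7e-07); under ALD the difference was 0.37 ± 0.11 (adjusted p = 0.19).

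Abra encodes an actin-binding protein of striated muscle that promotes transcription through serum response factor. It had signals of 66.8 (second) and 74.1 (first) under CVZ, 29.6 and 36.3 under COR, 20.6 and 27.9 under ALD, and 11.8 and 18.2 with vehicle. With RU486 the signals were 15.9 for CVZ, 16.1 for COR, 15.5 for ALD and 14.3 for RU486 alone. Every ligand array without RU486 stood above both vehicle arrays, and the RU486 arrays lay between the vehicle arrays. Abra rose under CVZ by log2 2.26 ± 0.11 (4.78-fold, adjusted p = 1.5e-09), under COR by 1.16 ± 0.11 (adjusted p = 6.4e-06) and under ALD by 0.71 ± 0.11 (adjusted p = 0.0025).

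Lmod2 encodes leiomodin 2, which nucleates and lengthens actin thin filaments. Its signals were 72.6 (second) and 73.1 (first) under CVZ, 42.9 and 56.5 under COR, 35.0 and 44.2 under ALD, and 30.4 and 36.8 with vehicle. The RU486 arrays gave 28.6 with CVZ, 29.2 with COR, 32.4 with ALD and 26.8 alone. The CVZ arrays stood clear of all others and nearly coincided, and the COR arrays stood above both vehicle arrays. Lmod2 rose by log2 1.12 ± 0.10 under CVZ (2.18-fold, adjusted p = 8.9e-07) and by 0.56 ± 0.10 under COR (adjusted p = 0.0025), with 0.23 ± 0.10 under ALD (adjusted p = 0.45).

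Myoz2 encodes calsarcin-1, a Z-disc protein that binds alpha-actinin and calcineurin. Signals were 99.3 (second) and 142 (first) under CVZ, 78.7 and 124 under COR, 74.9 and 121 under ALD, and 53.0 and 89.6 with vehicle. The 4 RU486 arrays lay between 63.4 and 65.5. Within each experiment CVZ was highest and vehicle lowest, but the first vehicle array stood above the second COR and ALD arrays. With the experiment as a block Myoz2 rose by log2 0.78 ± 0.08 under CVZ (adjusted p = 4.1e-06), 0.52 ± 0.08 under COR (adjusted p = 0.00063) and 0.46 ± 0.08 under ALD (adjusted p = 0.0051).

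Pdlim3 encodes ALP, a PDZ and LIM domain protein that binds alpha-actinin at the Z-disc. It had signals of 32.0 (second) and 46.1 (first) under CVZ, 25.9 and 36.7 under COR, 20.8 and 31.2 under ALD, and 19.0 and 27.7 with vehicle, and 14.9 to 18.6 on the RU486 arrays. Both CVZ arrays lay above both vehicle arrays, and the COR and ALD arrays overlapped them. The rise was log2 0.74 ± 0.09 under CVZ (adjusted p = 3.7e-05) and 0.42 ± 0.09 under COR (adjusted p = 0.013), and the ALD difference was 0.15 ± 0.09 (adjusted p = 0.70).

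Ckmt2 encodes the mitochondrial creatine kinase of striated muscle, which loads phosphate from mitochondrial ATP onto creatine. Its signals were 18.7 (second) and 29.0 (first) under CVZ, 13.6 and 21.4 under COR, 12.4 and 17.5 under ALD, and 9.66 and 15.7 with vehicle, with 9.41 to 10.0 on the RU486 arrays that also had a ligand. Both CVZ arrays exceeded both vehicle arrays, and the COR and ALD arrays overlapped them. Ckmt2 rose by log2 0.92 ± 0.11 under CVZ (adjusted p = 2.2e-05) and by 0.47 ± 0.11 under COR (adjusted p = 0.020), against 0.26 ± 0.11 under ALD (adjusted p = 0.44).

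**Figure D2:**
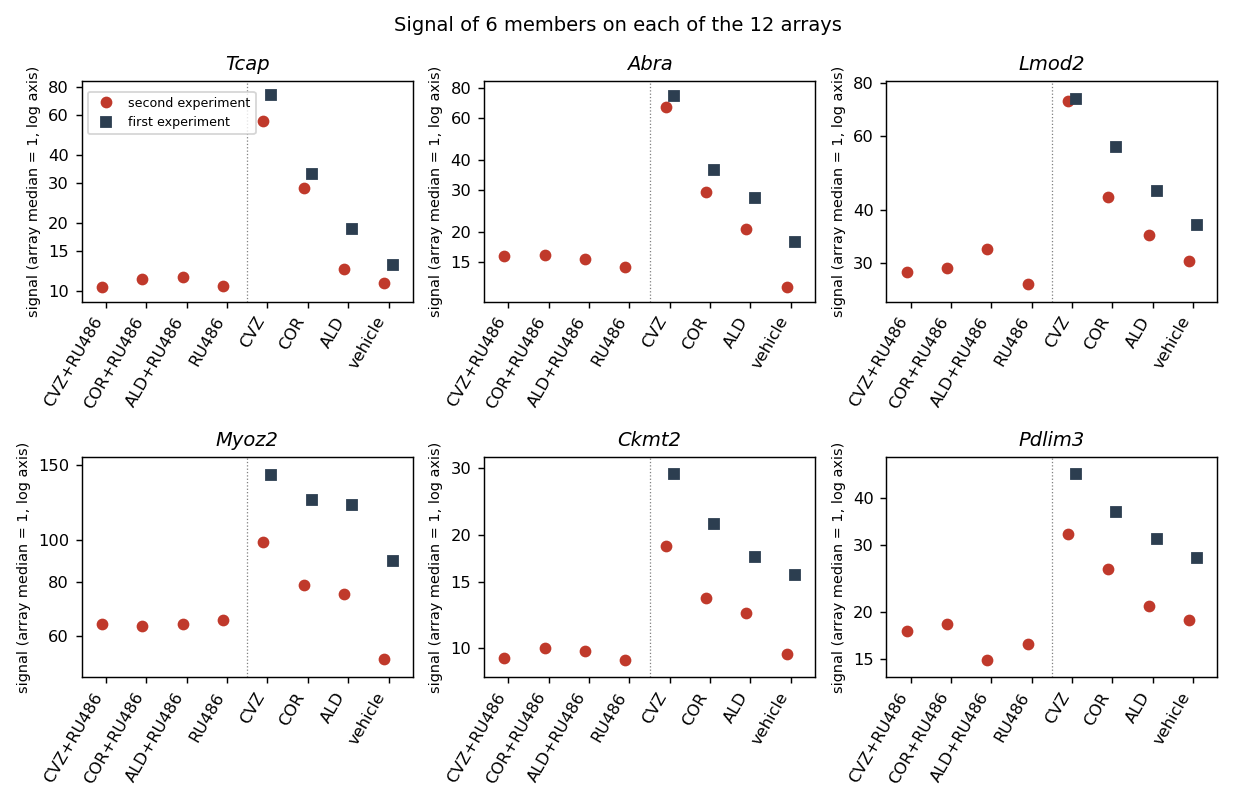
Signal (array median 1, logarithmic axis) of Tcap, Abra, Lmod2, Myoz2, Ckmt2 and Pdlim3 on each of the 12 arrays, with the RU486 arrays left of the dotted line, circles for the second and squares for the first experiment. Within each experiment CVZ is highest and vehicle lowest of the arrays without RU486, and for each of the 6 genes all RU486 arrays lie below the CVZ and COR arrays of the second experiment.

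The other calls under CVZ were small. Xirp1 encodes Xin, an actin-binding protein of the intercalated disc, and had signals of 29.9 (second) and 21.5 (first) under CVZ against 23.0 and 15.4 with vehicle (log2 0.43 ± 0.10, adjusted p = 0.013). Pdlim5, a Z-disc scaffold of the same family as Pdlim3, had 75.7 and 102 under CVZ against 48.5 and 90.4 with vehicle (0.41 ± 0.12, adjusted p = 0.045). The second vehicle array was the lowest of all 12 for Pdlim5: within the second experiment the CVZ difference was 0.64 and within the first 0.18, and without that array it was 0.12 (adjusted p = 0.58). Cryab encodes alpha-B crystallin, a small heat shock protein that protects desmin and titin. Its signals were 237 and 272 under CVZ against 199 and 235 with vehicle (0.23 ± 0.07, adjusted p = 0.043), and for Cryab and Xirp1 both CVZ arrays were above the vehicle array of their own experiment. Of 18 alternatives, 2 of which (the differences within each experiment) had no test, 11 ended the call for Cryab, 9 for Pdlim5 and 5 for Xirp1.

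The other 24 members were not called under CVZ. Their log2 differences ran from -0.25 to 0.18 with a median size of 0.06, and for 23 of the 24 the 95% interval lay within 0.5 either side of 0. This group holds the bulk proteins of the myofibril. Myh6, the alpha myosin heavy chain, had signals of 366 and 381 under CVZ against 317 and 341 with vehicle (log2 0.18, adjusted p = 0.08), and its CVZ arrays were the highest 2 of the 12. Titin (Ttn) had 160 and 135 against 158 and 151, and alpha-actinin 2 (Actn2) 196 and 188 against 187 and 206. For Ttn and Actn2 the CVZ and vehicle arrays overlapped. Cardiac troponin T (Tnnt2) had 307 and 340 against 288 and 341, and desmin (Des) 82.0 and 73.8 against 71.7 and 75.2, again with overlap in both. Myoglobin (Mb), the oxygen store of muscle, had 160 and 167 against 157 and 169. Fhl2, a LIM domain protein of the Z-disc that enters signalling complexes, had 108 and 93.5 against 109 and 113. Both CVZ arrays lay below both vehicle arrays for Fhl2, though only just in the second experiment (108.1 against 108.7), and the groups overlapped for Mb. On another Fhl2 probe set (mean signal 113) the arrays overlapped, with 103 and 101 under CVZ against 97 and 120 with vehicle.

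**Figure D3:**
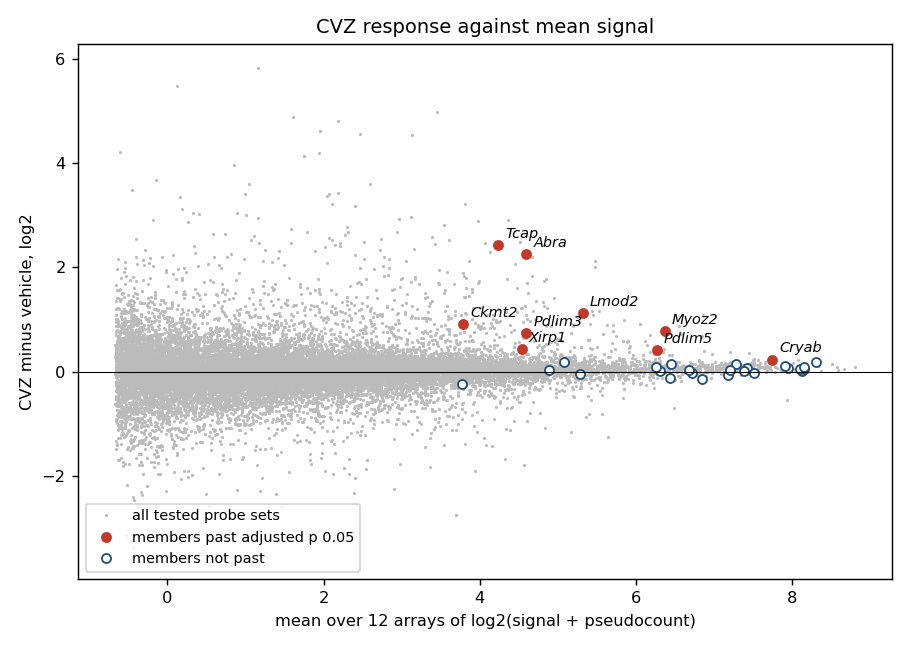
CVZ minus vehicle log2 difference (vertical axis) against mean log2 signal over the 12 arrays (horizontal axis) for all 18625 tested probe sets (grey), the 9 called members (filled) and the 24 others (open). The spread of all probe sets narrows to the right, and Tcap, Abra, Lmod2 and Myoz2 stand above nearly all grey points of similar signal.

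Set beside the 500 tested probe sets nearest to them in mean signal, the larger rises stood apart in size. Under CVZ 2 of the 500 moved as far as Tcap in either direction, 1 as far as Abra, 7 as far as Lmod2, 8 as far as Myoz2, 24 as far as Ckmt2 and 31 as far as Pdlim3. The smaller calls lay closer to their neighbours: 34 of 500 moved as far as Pdlim5, 48 as far as Cryab and 51 as far as Xirp1. The size that 9 in 10 neighbours stayed under was 0.22 for Cryab and 0.45 for Tcap. None of the 24 members that were not called lay beyond this size.

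Under COR, 6 of the 33 rose and 0 fell, with 2.44% of all tested probe sets called higher and 0.956% lower (3.39% in either direction). These were Tcap, Abra, Lmod2, Myoz2, Ckmt2 and Pdlim3. The other 27 had log2 differences from -0.33 to 0.34, and the median of the 33 was 0.01. Under ALD, Abra and Myoz2 rose and 0 of the 33 fell, with 0.87% of all probe sets called higher and 0.0805% lower, and the other 31 lay between -0.21 and 0.38. The 3 ligands were set against the same vehicle arrays, so their responses are not independent of each other. Without the second vehicle array 0 members were called under ALD, and without the first ALD array 1. Without the first COR array the COR count was 3. The COR calls of Ckmt2 and Pdlim3 were each lost without any 1 of the 2 COR or 2 vehicle arrays.

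As a share of the CVZ response on the log2 scale, the COR response was 56.1% for Tcap, 51.2% for Abra, 49.7% for Lmod2, 51.0% for Ckmt2, 57.2% for Pdlim3 and 66.5% for Myoz2. The ALD share was 15.1% for Tcap, 31.3% for Abra, 20.8% for Lmod2, 28.4% for Ckmt2, 19.9% for Pdlim3 and 59.2% for Myoz2. CVZ was above COR for 3 members (0.655% of all probe sets): Tcap by log2 1.07 ± 0.11 (adjusted p = 0.00028), Abra by 1.10 ± 0.11 (adjusted p = 0.00028) and Lmod2 by 0.56 ± 0.10 (adjusted p = 0.0092). CVZ was above ALD for 7 (2.62% of all called higher, 4.25% in either direction), the same 3 and Myoz2, Pdlim3, Ckmt2 and Myh6, by log2 0.24 (Myh6) to 2.07 (Tcap). Of 16 alternatives, 9 ended the call for Myh6, whose value fell as low as 0.06, and 7 ended it for Myoz2. COR was above ALD for 1 member (0.263% of all), Tcap, by 1.00 ± 0.11 (adjusted p = 0.0013). For Abra the COR minus ALD difference was 0.45 ± 0.11 (adjusted p = 0.15), and for Myoz2 it was 0.06 ± 0.08. No member was called lower in these 3 comparisons, in which limma called 0.311%, 1.63% and 0.0322% of all probe sets lower.

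RU486 alone was compared with vehicle, and the mean of the 3 ligands with RU486 was compared with RU486 alone. Single ligands were not tested in the latter comparison. Between RU486 and vehicle limma called 0 of the 33 members (6 had an unadjusted p below 0.05) and 0.129% of all probe sets (0.107% higher and 0.0215% lower), and the members lay between -0.33 and 0.39. Between the 3 arrays of a ligand with RU486 and the array of RU486 alone it called 0 members (4 at an unadjusted p below 0.05) and 0% of all probe sets, with members between -0.44 and 0.16. For the genes that rose under CVZ and COR, the mean ligand response in the presence of RU486 was 0.07 ± 0.13 for Tcap, 0.15 ± 0.13 for Abra, 0.16 ± 0.11 for Lmod2, 0.07 ± 0.12 for Ckmt2, 0.04 ± 0.10 for Pdlim3 and -0.04 ± 0.09 for Myoz2.

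The difference between the response with RU486 and the response without it was tested directly. For CVZ it was below 0 for 6 members and above 0 for 0 of the 33 (1.95% and 0.494% of all probe sets). The 6 were Tcap (log2 -2.45, adjusted p = 2.9e-06), Abra (-2.10, adjusted p = 1.2e-05), Lmod2 (-1.03, adjusted p = 0.0022), Ckmt2 (-0.90, adjusted p = 0.012), Myoz2 (-0.82, adjusted p = 0.0024) and Pdlim3 (-0.63, adjusted p = 0.044). The call for Pdlim3 was lost in 11 of 18 alternatives, quantile and trimmed-mean scaling among them. Averaged over the 3 ligands the difference was called for 4 members, all below 0 (0.966% of all probe sets were called below 0 and 0.123% above, 1.09% in all): Tcap, Abra, Myoz2 and Csrp3. Each of these values rests on single RU486 arrays.

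Csrp3 encodes muscle LIM protein, a Z-disc protein linked to the sensing of stretch. Its signals were 74.0 with CVZ and RU486, 72.3 with COR and RU486, 62.1 with ALD and RU486, and 94.1 with RU486 alone. Without RU486 they were 90.3 (second) and 104 (first) under CVZ, 82.0 and 107 under COR, 90.03 and 113 under ALD, and 76.7 and 100.1 with vehicle. Within the second experiment the RU486 array was the highest of the 8 and the 3 arrays of a ligand with RU486 were the lowest. Csrp3 was called neither for any ligand against vehicle nor for ligand with RU486 against RU486 (log2 -0.44 ± 0.09, adjusted p = 0.30).

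All 4 arrays with RU486 were then set against the matching groups without it, averaged over ligands and vehicle. Of the 33 members 11 were lower and 0 higher, with 2.16% of all probe sets called lower and 1.85% higher (4.02% in all), and the median of the 33 was log2 -0.15 against 0.014 over all. The groups without RU486 hold the ligand arrays, so the genes that ligands raise enter this comparison: Tcap (-0.98), Abra (-0.77), Lmod2 (-0.55), Pdlim3 (-0.50), Ckmt2 (-0.45), Cryab (-0.23) and Myoz2 (-0.22). The other 4 were Myl2 (-0.30), Tnnc1 (-0.23), Tnni3 (-0.21) and Myh6 (-0.20), the ventricular regulatory light chain, cardiac troponin C, cardiac troponin I and alpha myosin, none of which was called for a ligand against vehicle.

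Myl2 had signals of 241 with CVZ and RU486, 223 with COR and RU486, 239 with ALD and RU486 and 248 with RU486 alone. In the same experiment without RU486 it had 324 under CVZ, 269 under COR, 266 under ALD and 313 with vehicle. On this probe set the groups did not overlap. They overlapped on a dimmer Myl2 probe set (mean signal 3.32), where the RU486 difference was log2 0.33 (adjusted p = 0.44). Tnni3 had 213, 217, 209 and 239 with RU486 in the same order, against 275, 246, 242 and 255 without it. Here too the ranges did not overlap, although the array of RU486 alone stood close to the ALD array.

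Probe sets of similar signal were also slightly lower with RU486. The signal that 1 probe set in 1000 exceeded was 201 to 224 on the RU486 arrays, 234 to 241 on the other arrays of the second experiment and 248 to 269 in the first. The median RU486 difference of the 500 probe sets nearest in signal to Myh6, Myl2, Tnni3 and Tnnc1 was log2 -0.10. Tnnt2 and Tpm1 stood at -0.13 and -0.10 on the probe sets used and were not called. After quantile normalization, which gives every array the same distribution, Myh6 stood at 0.05 and Myl2 at -0.10 (adjusted p = 0.13), and 5 members were called. Over all probe sets that normalization called 854, against 748 on the deposited scale. In the second experiment alone, with the ligand as a block, 1 member and 81 of all probe sets were called. Without the array of CVZ and RU486 3 were called, and without the second CVZ or the second COR array 6.

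**Figure D4:**
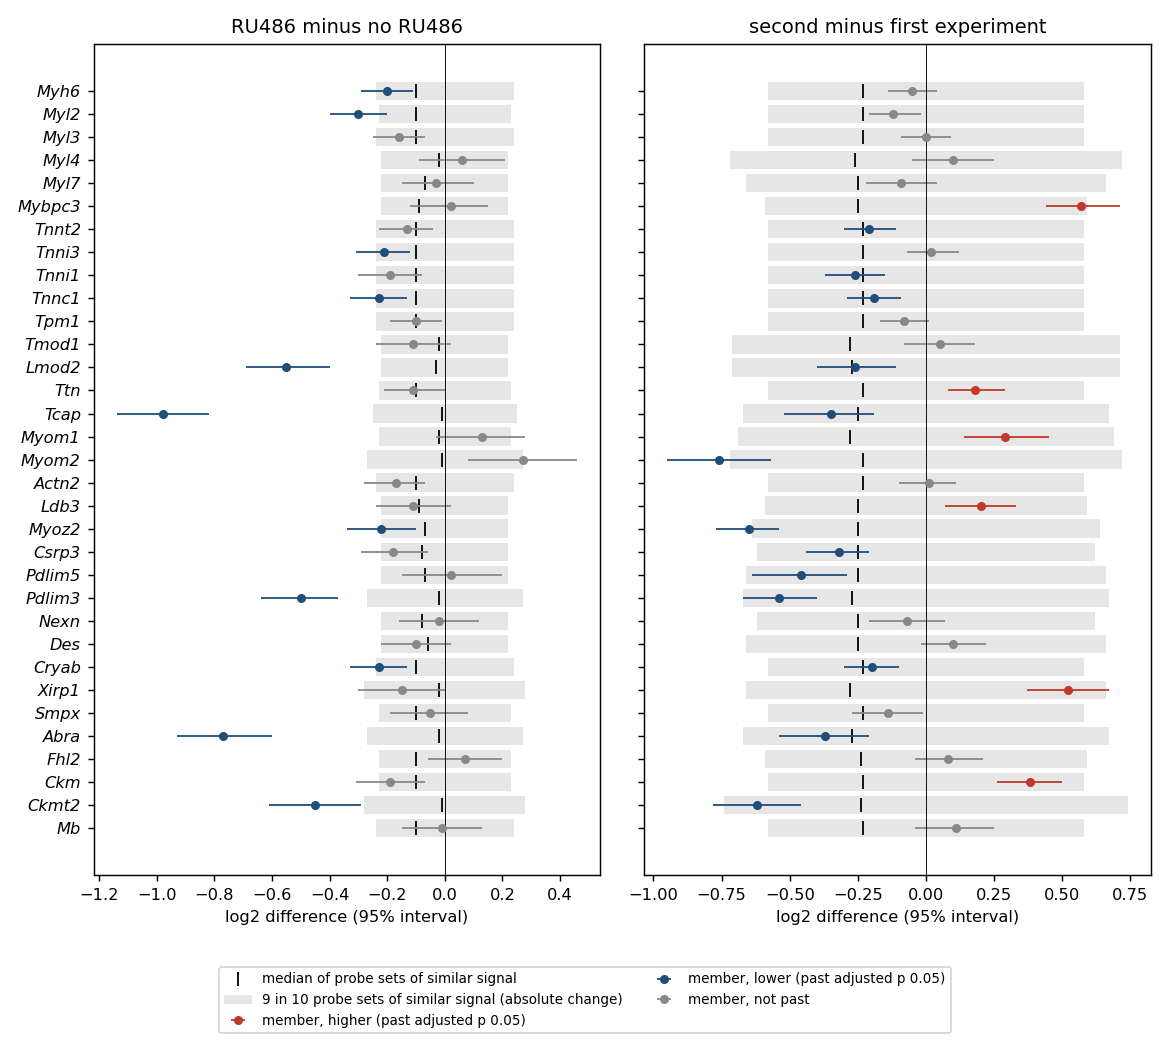
Log2 difference with its 95% interval for each member in the comparison of RU486 with no RU486 (left) and of the second with the first experiment (right); the black tick is the median, and the grey band the size that 9 in 10 stayed under, of the 500 probe sets nearest in signal. On the left Tcap, Abra, Lmod2, Pdlim3, Ckmt2 and Myl2 lie outside the band, and Myh6, Tnni3, Tnnc1, Myoz2 and Cryab lie at or within its edge.

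The experiments differed for many members. In the second experiment 6 of the 33 were higher than in the first and 13 lower, with 10.7% and 28.2% of all probe sets called in those directions (38.9% in all), and the median of the members was log2 -0.08 against -0.102 over all. The balance of directions turned with the scaling: 18 members were higher and 5 lower after quantile normalization, with 3547 and 3254 of all probe sets, and 16 and 5 with trimmed-mean scaling, with 4424 and 3016, where 1995 and 5250 were called on the deposited scale. On the deposited scale the higher ones were Mybpc3 (0.57), Xirp1 (0.52), Ckm (0.38), Myom1 (0.29), Ldb3 (0.20) and Ttn (0.18). The lowest differences were Myom2 (-0.76), Myoz2 (-0.65), Ckmt2 (-0.62) and Pdlim3 (-0.54). Mybpc3, Xirp1, Ckm, Myom2, Myoz2, Ckmt2 and Pdlim3 were called in the same direction under every alternative tried, and the other 12 were not.

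Mybpc3 encodes cardiac myosin-binding protein C, which regulates the reach of myosin heads to actin. Its signals in the second experiment were 118 under CVZ, 129 under COR, 124 under ALD, 109 with vehicle and 117 to 133 with RU486, against 78.1, 75.5, 81.0 and 88.2 in the first for CVZ, COR, ALD and vehicle. Myom2, an M-band protein that crosslinks thick filaments, had 10.2, 9.60, 11.8 and 11.2 in the second experiment and 17.6, 16.8, 16.1 and 22.7 in the first, in the same order of groups. The second experiment lay wholly above the first for Mybpc3 and wholly below it for Myom2. Myom1, which encodes the other myomesin, went the opposite way to Myom2: 29.4, 32.5, 34.4 and 26.4 in the second experiment against 24.0, 24.9, 24.9 and 25.8 in the first.

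The summed signals of several markers of other cells differed between the experiments. The summed signal of the 11 fibroblast markers was 257 to 274 on the RU486 arrays, 281 to 323 on the other arrays of the second experiment and 573 to 676 in the first. Of the 11, 10 were lower in the second experiment, with a median of log2 -1.30. Of all tested probe sets 28.2% were called lower and 10.7% higher in that comparison. Sums for smooth muscle markers were 29.7 to 33.9, 39.1 to 43.2 and 54.8 to 61.8 on the same sets of arrays, and for erythroid markers 29.2 to 38.2, 28.1 to 34.3 and 85.8 to 125. Endothelial sums were 9.28 to 10.9, 9.41 to 13.5 and 15.9 to 21.8, and macrophage sums 18.9 to 23.9, 24.7 to 27.3 and 27.0 to 31.9. Gene by gene the smooth muscle markers were mixed: of 7 tested 3 were lower and 1 higher, with a median of log2 -0.01. Of 8 macrophage markers 3 were lower (median -0.06), and of 6 endothelial markers 3 were lower (median -0.70). Of 2 erythroid markers 2 were lower, and 0 of 4 epicardial markers were called. Some defining markers had mean signals below the array median and below the filter: Sox10 of Schwann cells, Cd163, Itgam and C1qb of macrophages, Vwf and Cldn5 of endothelium, Krt19 of epicardium, Lmod1 of smooth muscle, Slc4a1 of erythroid cells and Nr2f1 of atrial cells. In bulk RNA, fewer cells of a type and less RNA per cell cannot be told apart, and the part of these markers in the differences between experiments or with RU486 was not tested.

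Some of these markers were called for CVZ against vehicle, where 4.77% of all tested probe sets were called higher and 3.19% lower. Of 11 fibroblast markers Tcf21 (log2 0.95) and Mgp (0.40) rose and 0 fell, with sums of 323 and 676 under CVZ (second and first experiment) against 281 and 631 with vehicle. Of 8 macrophage markers Mrc1 rose (0.92). Limma called 0 of 7 smooth muscle markers (1 at an unadjusted p below 0.05), 0 of 6 endothelial (2), 0 of 4 epicardial (0) and 0 of 2 erythroid markers (0). Of 3 ventricular markers Irx4, a transcription factor of ventricular identity, fell by 1.79 on the log2 scale (adjusted p = 1.5e-08), while Myl2, in the same list, differed by 0.01. The steroid target Fkbp5 served as a check of the labels: its signals were 43.8 and 43.5 under CVZ (second and first), 28.2 and 26.6 under COR, 13.4 and 10.9 under ALD, 2.17 and 1.51 with vehicle, and 2.40 to 5.33 on the RU486 arrays. It was 1 of 4 steroid targets read, with Per1, Klf15 and Tsc22d3. Under CVZ the 4 rose by log2 0.73 to 4.54. RU486 alone also stood above vehicle for the 4, by 0.19 to 1.38 with a median of 0.54.

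Other genes of the sarcomere and Z-disc were read from a wider list of 61, of which 51 had a probe set and 43 were tested. Under CVZ 5 rose and 3 fell, with a median of 0.08 over the 43, where 4.77% and 3.19% of all probe sets were called in those directions. Trim54, a ubiquitin ligase of the muscle RING finger family, had signals of 80.9 (second) and 87.6 (first) under CVZ, 67.1 and 69.5 under COR, 59.8 and 60.6 under ALD, and 44.0 and 41.2 with vehicle. Every ligand array stood above both vehicle arrays. It rose by log2 0.98 ± 0.08 under CVZ (adjusted p = 4.7e-07), 0.68 under COR (adjusted p = 5.6e-05) and 0.50 under ALD (adjusted p = 0.0035). Mypn, myopalladin of the Z-disc, had 22.2 and 22.9 under CVZ against 12.9 and 14.0 with vehicle (0.74 ± 0.11, adjusted p = 0.00020), and rose under COR by 0.57 (adjusted p = 0.0048).

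Fhl1, a LIM domain protein that binds titin, rose under CVZ by log2 0.54 (adjusted p = 0.0075), and Myh7, the beta myosin heavy chain, and Itgb1bp2, melusin, by 0.35 each (adjusted p = 0.025 for both). Hspb3, a small heat shock protein of muscle, fell by 0.61 under CVZ (adjusted p = 0.0010) and by 0.52 under COR (adjusted p = 0.0078). Synpo2l, a Z-disc protein, had signals of 31.3 and 32.1 under CVZ against 40.8 and 47.5 with vehicle, and fell by 0.47 under CVZ (adjusted p = 0.0026) and 0.50 under COR (adjusted p = 0.0037). Mylk3, the cardiac myosin light chain kinase, fell by 0.33 under CVZ (adjusted p = 0.044). Under COR 2 of the 43 rose and 2 fell (2.44% and 0.956% of all probe sets), and under ALD 1 rose and 0 fell (0.87% and 0.0805%). With RU486 4 were lower (2.16% of all): Tpm2, Mypn, Trim54 and Actn1, by log2 -0.41 to -0.26.

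Other probe sets of the members were checked. Myl2 differed by log2 0.01 under CVZ on the probe set used (mean signal 283), but on another, with a mean signal of 3.32, it fell by 2.60 under CVZ (adjusted p = 6.5e-06) and by 1.22 under COR (adjusted p = 0.016). That probe set had signals of 1.51 (second) and 0.322 (first) under CVZ against 5.73 and 3.88 with vehicle, and 3.66 to 4.66 on the RU486 arrays. Its RU486 difference was 0.33 (adjusted p = 0.44), where the probe set used stood at -0.30, so the lower Myl2 signal with RU486 was not seen on it. For Tnnt2 the probe set used (mean signal 287) stood at log2 -0.21 in the second against the first experiment. The other, much dimmer (mean signal 2.5), stood at 0.77. For Pdlim5 the direction was the same as on the probe set used: another probe set gave 16.1 and 14.0 under CVZ against 8.96 and 11.5 with vehicle, a rise of log2 0.56 (adjusted p = 0.011). The second vehicle array (8.96) was the lowest of all 12 here too, so this rise leans on the same array. With RU486 against no RU486, another probe set was called lower for Tpm1 (mean signal 10.7, log2 -0.39, adjusted p = 0.044). The same held for Ldb3 (mean signal 25.7, log2 -0.28, adjusted p = 0.032). On the probe sets used these genes stood at -0.10 and -0.11, and no further tested probe set of either was called. For Myh6 another probe set (mean signal 119) stood at log2 -0.02 under CVZ (adjusted p = 0.97), against 0.18 on the one used. With RU486 it stood at -0.09 (adjusted p = 0.64), against -0.20. Which transcript each probe set measures was not tested.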

How the data were processed

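RNA of 12 cultures was hybridised to 1 Affymetrix array each. Per the submitters' processing notes the authors used MAS5. The deposited file holds intensity values, not log values, and tested on the file every array had a median of 1, so a change in the shape of an array's distribution is not removed. The factor before this division and the MAS5 settings are not given in the sources used here.

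The 57 control probe sets were left out, which leaves 31042. A pseudocount of 0.0696 (10th percentile of the signals) was added before taking log2. Testing was limited to the 18625 whose mean log2 exceeded that of the lowest 40 percent, which equals a geometric mean of 0.63. Names came from the array annotation: 20832 probe sets had 1 gene symbol, 436 several and 9831 none.

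The model, in limma 3.58.1 under R 4.3.3, had a term for each of the 8 groups and one for the experiment (the block), and eBayes was run with a trend of variance on mean, giving 3 residual, 12.2 prior and 15.2 total degrees of freedom. p-values were adjusted by the Benjamini-Hochberg method, and intervals are 95%. The labels name the experiment, and the deviations of first-experiment arrays from their group means correlated at 0.512 to 0.567. Replicate arrays correlated at 0.946 to 0.950 and shared 0 identical values. The script was tested on simulated data. Promoters were searched in Python 3.11.15.

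The members, the lists of other genes and markers, and the comparisons were chosen with earlier results of these data known. The differences between ligands, RU486 against vehicle, ligand with RU486 against RU486 and the CVZ response with and without RU486 were added after the data had been seen. Values on every array are given for the members that the comparisons turn on and for bright members of each role, and the others by range and count. Alternatives were no block, quantile and trimmed-mean scaling, pseudocounts of 0.0348 and 0.279, no filter, no trend, the mean over a gene's probe sets, each array left out, and for RU486 the second experiment alone.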

Additional observations from a re-analysis of the deposited data

Results flagged for a closer look

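For 4 members the mean ligand response with RU486 differed from the mean response without it by the test of the difference itself. The log2 differences were -1.32 ± 0.15 for Tcap (adjusted p = 0.00024), -1.23 ± 0.15 for Abra (adjusted p = 0.00051), -0.63 ± 0.11 for Myoz2 (adjusted p = 0.0073) and -0.59 ± 0.11 for Csrp3 (adjusted p = 0.0095), each resting on 1 array per group with RU486. Without the array of CVZ with RU486 they were -0.75 for Tcap (adjusted p = 0.078), -0.79 for Abra (adjusted p = 0.060), -0.53 for Myoz2 (adjusted p = 0.079) and -0.64 for Csrp3 (adjusted p = 0.024). Myoz2 and Abra rose under each ligand without RU486 and Tcap under CVZ and COR, whereas no ligand was called for Csrp3, which was highest on the array of RU486 alone among the arrays of the second experiment. In that experiment RU486 alone minus vehicle was log2 0.29 for Csrp3, 0.30 for Myoz2, 0.27 for Abra and -0.04 for Tcap, 1 array against 1.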

How the results depend on the processing

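The number of members called was recomputed under each alternative. Without the replicate block, that is without pairing the arrays by experiment, it was 2 in place of 9 for CVZ, 0 in place of 6 for COR, 0 in place of 2 for ALD, 0 in place of 11 for RU486 against no RU486, 0 in place of 4 for the mean response with RU486 against without, 0 in place of 6 for the CVZ response with RU486 against without, and 0, 1 and 0 for CVZ against COR, CVZ against ALD and COR against ALD. Without the mean-variance trend the counts were 1 for COR, 8 for the second against the first experiment, 2 for CVZ against ALD, and 0 for ALD, RU486, both RU486 response differences, CVZ against COR and COR against ALD. RU486 against no RU486 gave 5 members with quantile normalization, 6 without the filter and 1 in the second experiment alone. Leaving out 1 array at a time gave 6 to 9 for CVZ, 3 to 6 for COR, 0 to 3 for ALD, 3 to 16 for RU486, 1 to 5 for the mean response difference and 0 to 1 for RU486 against vehicle. The 3 and the 1 came without the array of CVZ with RU486, and the last 1 without the first vehicle array. Tcap and Abra kept their call under CVZ in every alternative with a test, between log2 2.33 and 2.49 for Tcap and between 2.10 and 2.42 for Abra, whose untested differences were 2.49 within the second and 2.02 within the first experiment. Lmod2, Myoz2, Pdlim3 and Ckmt2 lost theirs only without the block (adjusted p = 0.058, 0.71, 0.62 and 0.54). With the mean over probe sets 1 member was called lower under CVZ, and under COR 1 was called lower with that mean and 1 with trimmed-mean scaling. Signs turned for Myh6 with RU486 (0.05, quantile) and Myl2 with RU486 (0.02, mean over probe sets). Between experiments they turned for Tnni1 (0.02) and Lmod2 (0.03) with quantile normalization, Tnnc1 (0.01) and Cryab (0.01) with trimmed-mean scaling, and Tnnt2 (0.28) and Pdlim5 (0.04) with the mean over probe sets. Quantile and trimmed-mean scaling moved the median of all probe sets between experiments by 0.124 and 0.198. Trimmed-mean scaling gave 786 higher and 801 lower calls for CVZ (889 and 594 on the deposited scale) and 431 and 276 for COR (454 and 178). Quantile normalization gave 151 and 37 for ALD (162 and 15) and 146 and 321 for the CVZ response difference (92 and 363). The cause of these changes was not tested. Over all probe sets, calls without the block and without the trend were 215 and 646 of 1483 for CVZ, 41 and 117 of 632 for COR, 13 and 15 of 177 for ALD, 11 and 4 of 748 for RU486, 0 and 0 of 203 for the mean response difference, 0 and 0 of 455 for that of CVZ, 0 and 0 of 180 for CVZ against COR, 18 and 78 of 792 for CVZ against ALD, 0 and 0 of 55 for COR against ALD, and 0 and 0 of 24 for RU486 against vehicle. With the mean over probe sets they were 413 for COR, 442 for RU486, 126 and 298 for the response differences, 84 for CVZ against COR, 11 for COR against ALD and 10 for RU486 against vehicle. Without the filter they were 484 for RU486, 106 for CVZ against COR, 21 for COR against ALD and 13 for RU486 against vehicle, and in the second experiment alone 81 for RU486. The count for COR was 341 without the first and 381 without the second COR array, and for ALD 117 without the second vehicle array. For RU486 it was 402 and 413 without the second CVZ or COR array, and 151 and 432 without CVZ or COR with RU486. The mean response difference gave 54 without CVZ with RU486 and 355 without ALD with RU486. CVZ against ALD gave 486 to 510 without a CVZ array or the first ALD array, CVZ against COR 18 to 102 without a CVZ or COR array, COR against ALD 2 to 34 without a COR or ALD array, RU486 against vehicle 39 and 42 without an ALD array and 11 without the second vehicle array, and ligand with RU486 against RU486 up to 3 in place of 0.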
